A study of Mus musculus with 37 samples.

Results

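The nuclear pore and lamina genes are 33 genes, of the 54752 genes in the deposited gene tables, that encode the proteins of the nuclear pore complex and of the nuclear lamina with its inner nuclear membrane partners. They were listed by name, for their known place in the nuclear envelope, and the rule uses no measured value. All 33 were found in the tables, 1 of them, Nup58, under its older symbol Nupl1. By role, 8 belong to the outer ring of the pore (the Y complex), 5 to the inner ring, 3 to the central channel, 5 to the cytoplasmic filaments and mRNA export face, 3 to the nuclear basket, 4 to the membrane anchors and their partners, and 5 to the lamina and inner nuclear membrane.

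Nuclear pore complexes are large protein channels that span the nuclear envelope and let proteins and RNA pass between nucleus and cytoplasm, while the lamina is a mesh of lamin filaments that lines the inner side of the envelope. A fully grown oocyte carries an intact, large nucleus, the germinal vesicle (GV); when meiosis resumes, this envelope breaks down and its pores and lamina come apart. Oocytes at metaphase I (MI) and metaphase II (MII) therefore have no nucleus, and with transcription largely silent they live on stored maternal mRNA, which also has to serve the envelopes rebuilt after fertilisation.

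RNA of 37 single oocytes from C57BL/6 mice was sequenced with Smart-seq2, which copies RNA from its poly(A) tail. The labels name batches A and B. Batch A holds 6 GV oocytes (GV_A) and 6 MII oocytes (MII_A), and batch B holds 10 GV oocytes (GV_B) and 15 MI oocytes (MI_B). MI and MII oocytes never shared a batch. All females were wild-type C57BL/6 aged 6 to 8 weeks and primed with PMSG. For the GV stage, ovaries were opened at 48 h. For the MII stage, hCG was given at that time and ovulated oocytes were recovered after a further 15 h, so they had matured in the animal. MI oocytes had matured in culture, for 8 h and without cumulus cells. The zona pellucida and the polar body were removed before lysis. The animal each oocyte came from is not named, so the p-values measure the spread between oocytes alone.

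The total RSEM expected count per oocyte, without spike-ins, ran from 7509875 to 12648629 in GV_A (median 10014033) and from 9930485 to 13988444 in MII_A (median 10509159). In GV_B it ran from 7184205 to 17724506 (median 11548242). In MI_B it ran from 2709280, in oocyte 15, to 19390128 (median 12840734). The smallest library was thus an MI oocyte, and the other 14 MI libraries lay in the range of the other groups or above it. A median of 32 of the 33 members had at least 1 count in the oocytes of each of the 4 groups. Levels below are CPM, counts per 1000000 counts of the library, with library totals scaled by TMM within each batch.

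Oocyte markers were abundant in all 4 groups. The summed level of 10 oocyte markers had a median of 11261 CPM in GV_A, 7092 in MII_A, 4036 in GV_B and 3602 in MI_B, and Gdf9 was the most abundant in each group. Every oocyte held counts of Zp3, Gdf9 and Bmp15. The summed level of 15 cumulus and granulosa markers had a median of 48.8 CPM in GV_A, 39.2 in MII_A, 37.9 in GV_B and 36.8 in MI_B, with Cyp19a1 most abundant in the first 3 groups and Nr5a2 in MI_B. Of the defining granulosa markers, Amh and Foxl2 had no count in batch B and at most 4 counts in any oocyte of batch A, whereas Fshr reached 53 counts in 1 GV_A oocyte and 22 in 1 GV_B oocyte. The summed level of 6 blood and immune markers was at most 4.20 CPM outside MII_A oocyte 1, where it was 15.4 CPM.

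Together the 33 mRNAs made up a median of 2657 CPM in GV_A (lowest 2536, highest 3113) and 3557 CPM in MII_A (lowest 3433, highest 4041). Each MII oocyte lay above each GV oocyte of batch A on this scale. In batch B the sum had a median of 1862 CPM in GV_B (lowest 1759, highest 2130) and 1755 CPM in MI_B (lowest 1616, highest 1963), and the groups overlapped. Batch A also holds ERCC spike-ins, RNAs of known amount added from outside, with 44663 to 128319 counts in GV_A and 120280 to 143062 in MII_A, whereas batch B holds at most 32 counts per oocyte. Per 1000 ERCC counts, the members' summed count had a median of 367 in GV_A (lowest 193, highest 468) and 280 in MII_A (lowest 237, highest 333). The order of the medians was thus the opposite of that in CPM, and the groups overlapped.

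Compared per kilobase of transcript, the members spanned a wide range. Averaged over the 37 oocytes, Nup35, an inner ring protein, stood at 83.6 CPM per kilobase. Nup214, of the cytoplasmic filaments, stood at 69.9 and its partner Nup88 at 60.7 CPM per kilobase. The lamin B receptor Lbr stood at 54.9 and the outer ring protein Nup85 at 49.3 CPM per kilobase. This order over all oocytes did not hold in each group: Nup85 had a median of 76.5 in GV_A and 118 in MII_A, but 27.5 in GV_B and 20.9 in MI_B, where it lay below Tpr (45.6 and 46.8), Nup107 (32.7 and 34.8) and Sec13 (33.5 and 23.8 CPM per kilobase). The lowest members apart from Nup58 were the lamin gene Lmnb2 at 0.871 and the transmembrane pore protein gene Nup210 at 0.812 CPM per kilobase. Proteins of 1 subcomplex, which sit in the pore in fixed ratios, did not have mRNAs at like levels. In the outer ring the mean ran from 2.82 CPM per kilobase for Nup133 to 49.3 for Nup85. In the inner ring it ran from 2.47 for Nup155 to 83.6 for Nup35. Nup133 overlaps the antisense gene Gm29773 (by GENCODE release 21). Mean counts of Gm29773 and Nup133 were 663 and 156 by RSEM, and 2.78 and 251 by HTSeq. RSEM divides reads of the shared part by model, so the low level of Nup133 carries that uncertainty. Lengths were weighted over all forms of a gene, coding or not. For Nup85 the length used was 1.47 kilobases, while its main coding form Nup85-201 (73.3% of counts) has 2230 bases. The main form of Nup205 (52.8% of counts) is annotated as a processed transcript without a coding region. These levels are thus not those of coding forms alone. How mRNA levels relate to protein was not measured.

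**Figure D1:**
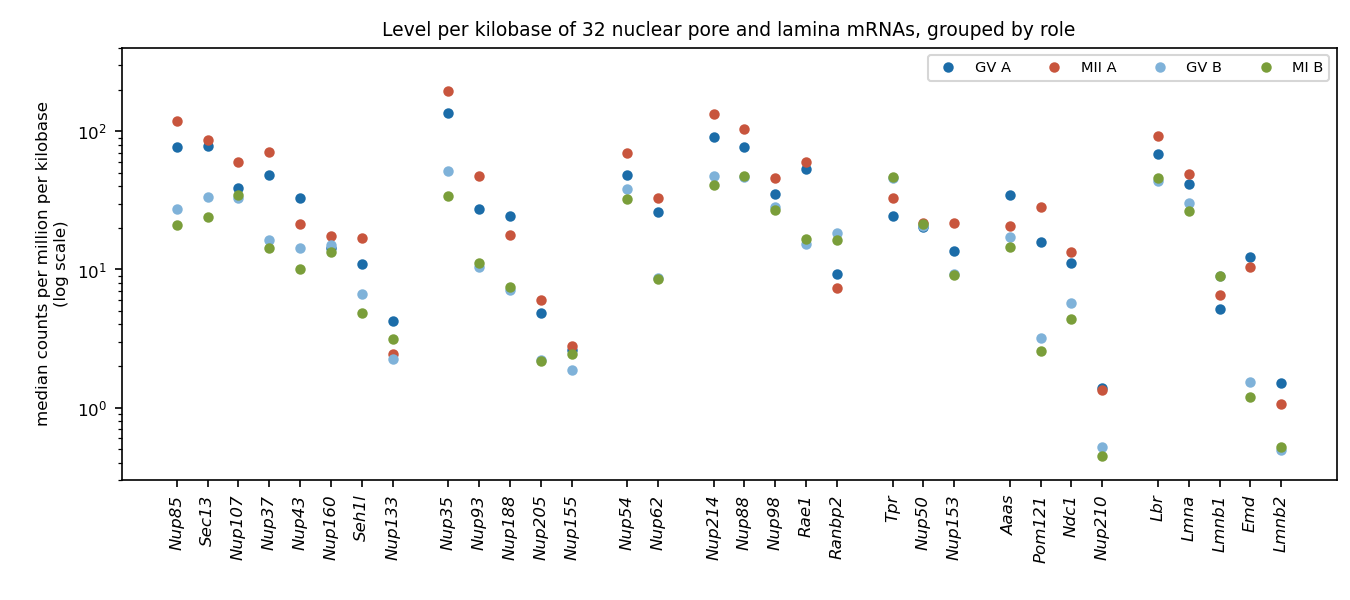
Median level of 32 members in each of the 4 groups, in CPM per kilobase of transcript on a log axis, ordered within each role (outer ring, inner ring, central channel, cytoplasmic face, nuclear basket, membrane anchors, lamina; Nup58, with a median of 0, is left out). Nup35 has the highest median in GV_A, MII_A and GV_B and Nup88 in MI_B, and Lmnb2 and Nup210 have the lowest in all 4 groups.

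The spread between oocytes of a group, as the coefficient of variation of CPM, had a median over the members of 17.1% in MII_A, 29.1% in GV_B and 28.1% in MI_B, with GV_A between MII_A and MI_B. The least variable member was Nup88 in GV_A (9.83%), the export factor gene Rae1 in MII_A (6.62%), and Nup98 in GV_B (9.29%) and MI_B (16.1%).

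The GV groups of the batches did not hold the members at the same levels. The median of Emd, which encodes the inner membrane protein emerin, was 8.03 times as high in GV_A (16.3 CPM) as in GV_B (2.03 CPM). For the membrane anchor gene Pom121 the ratio was 4.99, for Rae1 3.51 and for the inner ring gene Nup188 3.42. In the other direction, the median was 1.96 times as high in GV_B for Ranbp2, 1.87 times for Tpr and 1.74 times for Lmnb1. These ratios were not tested, and batch cannot be told apart from any other difference between the collections; the comparisons that follow therefore stay within a batch or compare changes within batches.

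The comparison of MII with GV oocytes in batch A asks how the stored mRNAs for pores and lamina stood after maturation in the animal. Relative to the other mRNAs of the same oocytes (TMM scaling), a part of the pore mRNAs rose in MII oocytes, each by less than 2-fold, and a few fell. With adjusted p under 0.05 in edgeR's quasi-likelihood test, 13 of 32 members tested rose (9.06% of the 12929 genes tested rose) and 3 fell (11.5% of genes tested fell; 20.6% passed in either direction). With no filter on low counts 5 rose and 3 fell (3.80% and 4.18% of genes), in the fit of all 37 oocytes 8 rose and 0 fell (4.13% and 4.05%), and with the oocyte number as a block 4 rose and 0 fell (4.62% and 7.66%). Relative to ERCC spike-ins the picture moved downward as a whole: the median log2 fold change of all genes tested went from 0.01 to -0.72 and that of the members from 0.41 to -0.32, 0 members rose (1.11% of genes tested) and 8 of 32 fell (42.2% of genes tested). The 13 mRNAs thus took a larger share of the oocyte's mRNA in MII, and a rise per oocyte was not detected.

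Under a stricter rule, which also asks for more than a 2-fold change, 0 of the 32 members were called in batch A by edgeR with TMM. Of genes tested 8.47% were called, 2.15% higher and 6.32% lower. An unadjusted p under 0.05 was seen for 20 members (34.3% of genes tested). DESeq2 also called 0 (2.17% of genes tested higher and 6.53% lower). With ERCC scaling 6 of 32 members were called lower (29.3% of genes tested): Aaas, Lmnb2, Nup133, Nup188, Nup43 and Ranbp2. Without GV_A oocyte 1 as well, an alternative chosen after seeing the data, Lmnb2 and Ranbp2 lost the call and the other 4 kept it (23.6% of genes called lower). Of the 32 estimates, 25 were above 0 and 7 below with TMM, and 2 were above 0 and 30 below with ERCC scaling. With ERCC scaling and GV_A oocyte 1 left out, 5 were above 0 and 27 below, among the 5 Nup153 (0.18) and Nup214 (0.01). In 6 members the lowest MII oocyte lay above the highest GV oocyte: Nup85, Nup93, Nup98, Nup153, Ndc1 and Lbr (4.07% of genes tested were separated in this direction). For 0 members did MII lie wholly below GV (5.72% of genes tested). These separations are on the TMM scale.

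**Figure D2:**
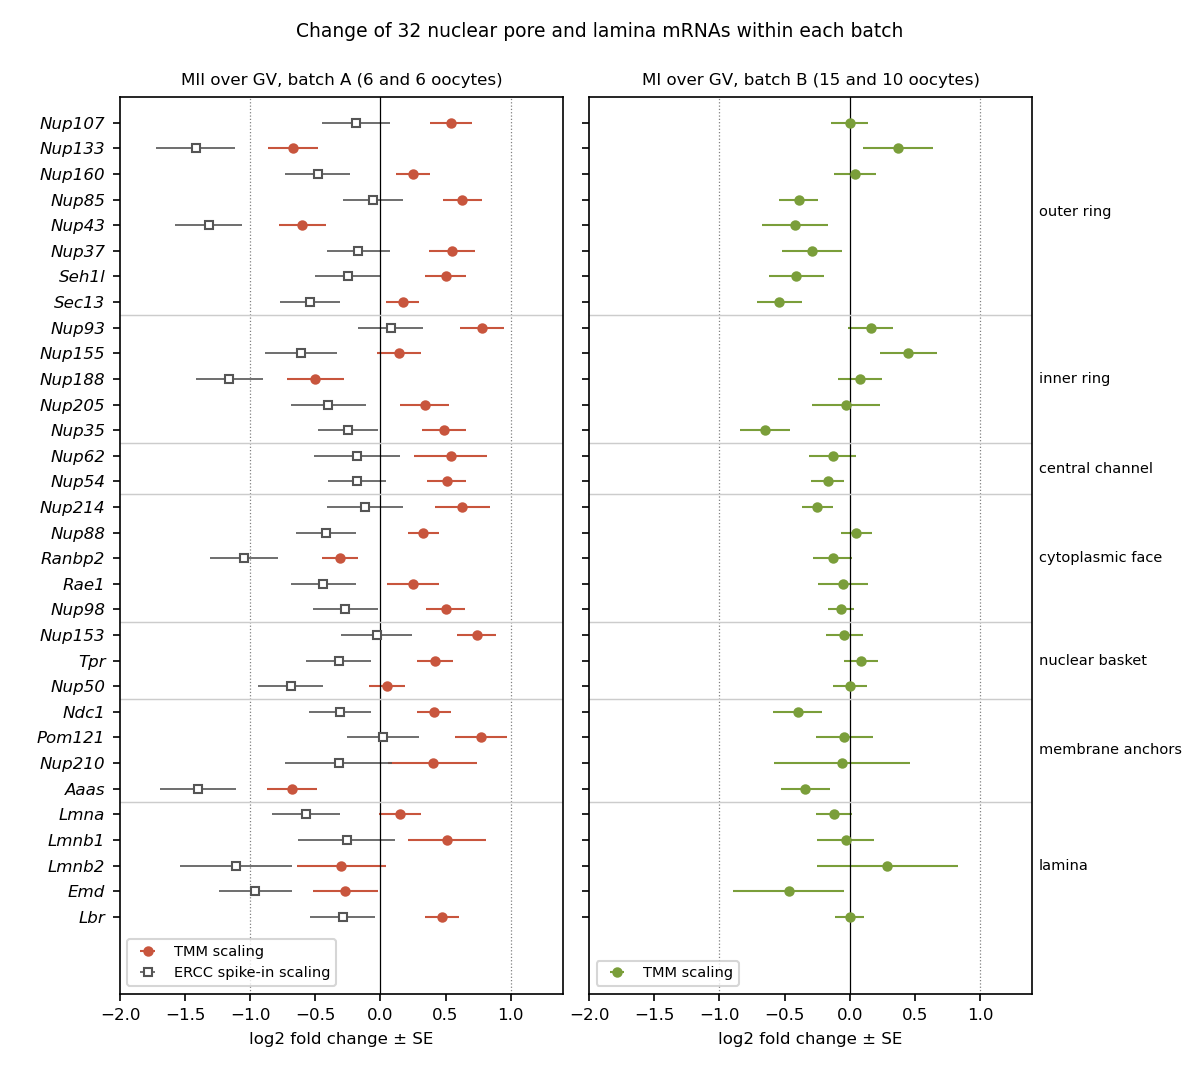
Log2 fold change of 32 members with its standard error, for MII over GV in batch A with TMM scaling (filled circles) and ERCC scaling (open squares) and for MI over GV in batch B (right), ordered by role; dotted lines mark a fold change of 2. In batch A 25 estimates are above 0 with TMM scaling and 2 with ERCC scaling, and in batch B 10 are above 0.

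In the outer ring, the Y-shaped scaffold on both faces of the pore, 4 of 8 members rose and 2 fell with TMM. Nup85 had 89.3 CPM in its lowest GV_A oocyte, 113 at the median and 149 in the highest, against 162, 174 and 212 in MII_A, with no overlap. Its log2 fold change was 0.63 ± 0.15 (SE, adjusted p = 0.00885), and -0.06 with ERCC scaling, where the sign turned. Nup107, Nup37 and Seh1l rose by log2 0.54, 0.55 and 0.50 with TMM, and their estimates were -0.19, -0.17 and -0.25 with ERCC scaling. Nup133 went the other way: it had 12.4, 18.7 and 24.5 CPM (lowest, median, highest) in GV_A and 10.1, 11.0 and 14.8 in MII_A. All 6 MII oocytes were below the GV median of Nup133, although the ranges overlapped. The log2 fold change of Nup133 was -0.67 ± 0.19 with TMM (adjusted p = 0.0227) and -1.42 with ERCC scaling. Nup43 fell likewise, with -0.60 ± 0.18 (adjusted p = 0.0308) and -1.32 with ERCC scaling. With HTSeq counts Nup133 still fell and Nup43 did not pass (8.79% of genes tested fell). Members of this 1 subcomplex therefore differed in direction on the TMM scale.

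In the inner ring, which joins the scaffold to the pore membrane, 1 of 5 members rose with TMM and none fell. Nup93, which ties the inner ring together, had 53.3, 71.5 and 96.9 CPM in GV_A and 104, 123 and 156 in MII_A; its values and those of Pom121 are shown because their estimates were the highest, a choice made after the values were seen. Its log2 fold change of 0.78 ± 0.17 (adjusted p = 0.00465) shrank to 0.08 with ERCC scaling. Nup35 had 165, 212 and 264 CPM in GV_A and 195, 303 and 397 in MII_A. The groups of Nup35 overlapped, and its estimate of 0.49 ± 0.17 (-0.25 with ERCC scaling) missed the threshold (adjusted p = 0.0539); with RLE scaling, DESeq2 or HTSeq counts it passed (0.0492, 0.0318 and 0.0454). Nup155 had 14.1, 17.0 and 20.2 CPM in GV_A and 14.5, 18.3 and 22.8 in MII_A, nearly the same range (0.14 with TMM and -0.61 with ERCC scaling, neither passing). Nup188 missed the threshold with TMM (-0.50, adjusted p = 0.111) and was called lower with ERCC scaling (-1.16, adjusted p = 0.00120).

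In the central channel, whose phenylalanine-glycine repeats form the permeability barrier, 1 of 2 tested members rose with TMM. Nup54 had 71.6, 107 and 131 CPM in GV_A and 112, 155 and 182 in MII_A. All 6 MII oocytes were above the GV median, with some overlap. The log2 fold change of Nup54 was 0.51 ± 0.15 (adjusted p = 0.0268), and -0.18 with ERCC scaling. Nup62 had a like estimate with a wider error (0.54 ± 0.28, adjusted p = 0.187; -0.18 with ERCC scaling).

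On the cytoplasmic face, where exported mRNA is released, 2 of 5 members rose with TMM and none fell. Nup214 had 208, 273 and 390 CPM in GV_A and 311, 398 and 646 in MII_A, with overlap. Its log2 fold change was 0.63 ± 0.21 (adjusted p = 0.0419), and -0.12 with ERCC scaling. Nup98, which also shuttles into the nucleus, rose by 0.50 ± 0.15 (adjusted p = 0.0246), with every MII oocyte above every GV oocyte on the TMM scale, and had -0.27 with ERCC scaling. Ranbp2, which builds the filaments on which the SUMO-bound Ran GTPase-activating protein docks, had 69.9, 89.2 and 103 CPM in GV_A and 54.1, 70.0 and 77.6 in MII_A. All 6 MII oocytes lay below its GV median. The estimate for Ranbp2 was -0.31 ± 0.14 with TMM (adjusted p = 0.12), and -1.05 with ERCC scaling, where it was called (adjusted p = 0.00244); without GV_A oocyte 1 as well it was -0.90 (adjusted p = 0.00774) and the call was lost.

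In the nuclear basket, the filaments on the inner face, 2 of 3 members rose with TMM. Nup153 had 57.3, 71.2 and 89.2 CPM in GV_A and 104, 113 and 157 in MII_A. The groups did not overlap, and the log2 fold change of 0.74 ± 0.15 had the smallest adjusted p of the 32 members (0.00275). With ERCC scaling it was -0.03. Tpr, the coiled-coil protein that forms the basket, had 106, 139 and 191 CPM in GV_A and 168, 187 and 216 in MII_A. All 6 MII oocytes were above the GV median of Tpr, and its estimate of 0.42 ± 0.14 passed narrowly (adjusted p = 0.0487; -0.32 with ERCC scaling).

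Among the membrane anchors, 2 of 4 members rose and 1 fell with TMM. Pom121 had 65.3, 88.6 and 131 CPM in GV_A and 117, 158 and 226 in MII_A, a log2 fold change of 0.77 ± 0.20 (adjusted p = 0.0128) that shrank to 0.02 with ERCC scaling. Ndc1, a transmembrane protein, rose by 0.41 ± 0.13 (adjusted p = 0.0395) and had -0.31 with ERCC scaling. Aaas, whose product Ndc1 holds at the pore, fell. It had 34.4, 46.5 and 60.2 CPM in GV_A and 19.3, 27.9 and 39.0 in MII_A, a log2 fold change of -0.68 ± 0.19 (adjusted p = 0.0184), and -1.40 with ERCC scaling. The mRNAs of this anchor and its partner thus went in opposite directions with TMM. Nup210 was scarce, with 1.07, 4.16 and 4.93 CPM in GV_A and 3.70, 4.03 and 7.16 in MII_A, with overlap (0.40 ± 0.34 with TMM and -0.32 with ERCC scaling, neither passing).

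Of the lamina and inner membrane genes, only Lbr passed the test in batch A with TMM. Lbr, which holds lamin B and heterochromatin at the inner membrane, had 140, 211 and 236 CPM in GV_A and 243, 286 and 299 in MII_A. The groups did not overlap, and its log2 fold change was 0.47 ± 0.13 (adjusted p = 0.0214; -0.29 with ERCC scaling). The A-type lamin gene Lmna had 58.8, 74.7 and 100 CPM in GV_A and 70.6, 87.7 and 110 in MII_A, and the groups overlapped (0.15 ± 0.16, adjusted p = 0.532; -0.57 with ERCC scaling, adjusted p = 0.0740). Of the B-type lamin genes, Lmnb1 had 8.12, 14.1 and 20.8 CPM in GV_A and 12.9, 17.9 and 38.6 in MII_A. The highest value of Lmnb1 came from MII_A oocyte 5 and the next was 19.7 CPM, and its test did not pass (0.51 ± 0.30, adjusted p = 0.244; -0.26 with ERCC scaling). Lmnb2 was scarce, with 1.77, 4.79 and 6.16 CPM in GV_A and 2.15, 3.37 and 5.77 in MII_A (-0.30 ± 0.34, adjusted p = 0.570). With ERCC scaling Lmnb2 was called lower (-1.11, adjusted p = 0.0415), and without GV_A oocyte 1 as well it did not pass (-0.86, adjusted p = 0.128). Emd had 10.2, 16.3 and 26.7 CPM in GV_A and 10.8, 13.8 and 19.7 in MII_A. The groups of Emd overlapped, with -0.27 ± 0.25 (adjusted p = 0.459) by TMM and -0.96 (adjusted p = 0.00891) by ERCC scaling.

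**Figure D3:**
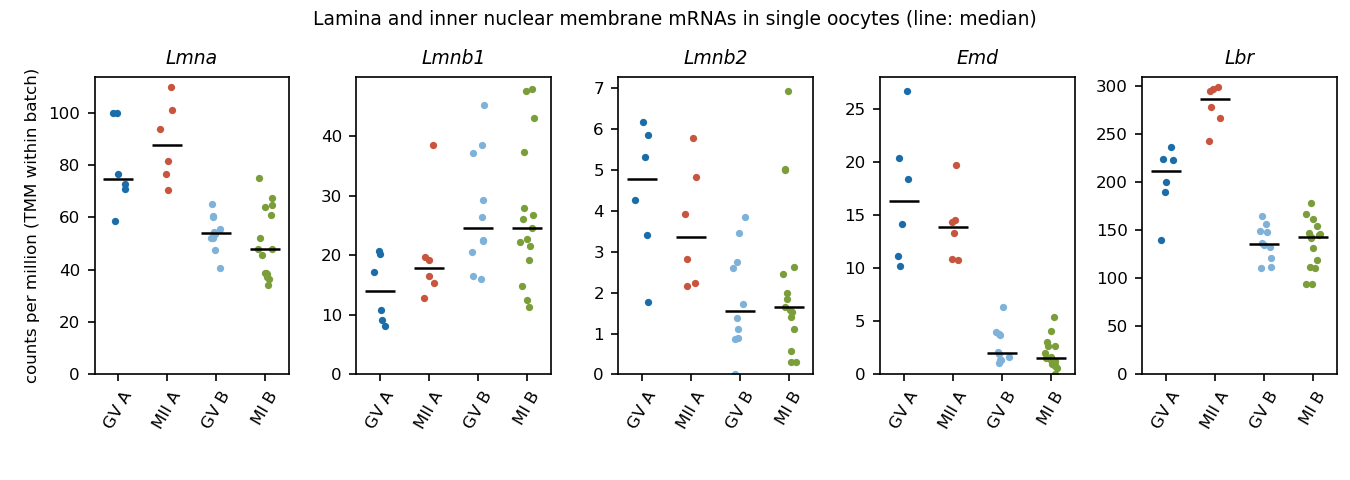
CPM of the 5 lamina and inner membrane genes in each of the 37 oocytes, by group, with the median as a line (linear axes from 0, scaled by TMM within batch). For Lbr the 6 MII_A oocytes, at 243 to 299 CPM, lie above the 6 GV_A oocytes, at 140 to 236 CPM, and for the other genes the GV and MII or MI oocytes of a batch overlap.

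When each oocyte of batch A was left out in turn, Nup85, Nup93, Nup153, Pom121 and Lbr rose and Aaas fell in each of the 12 fits. Among the other alternatives without ERCC scaling, Lbr was lost with no filter (adjusted p = 0.106) and with the oocyte number as a block (0.0675), Pom121 in the fit of all 37 oocytes (0.0553), and Aaas in that fit (0.113) and with the block (0.0609). The count of members that rose, 13 with all oocytes, was 7 without GV_A oocyte 1 (8.06% of genes tested), 8 without GV_A oocyte 3 (7.40%), 8 without MII_A oocyte 3 (7.97%), 6 without MII_A oocyte 4 (6.86%) and 8 without MII_A oocyte 6 (7.75%). The share of all genes that rose, 9.06% with all oocytes, thus went down in the same fits. Of the others, Nup133 passed in 11 of the 12 fits, Nup98 in 10, Nup54 in 8, Nup107 in 7, Nup43 and Nup214 in 5, Ndc1 in 4, Nup37 and Seh1l in 3 and Tpr in 1. The highest adjusted p came without MII_A oocyte 4 for Nup107 (0.0732), Nup98 (0.0598), Tpr (0.103) and Ndc1 (0.0984). It came without MII_A oocyte 3 for Nup37 (0.0928) and Seh1l (0.0753), without MII_A oocyte 6 for Nup54 (0.0627) and without MII_A oocyte 5 for Nup214 (0.101). It came without GV_A oocyte 5 for Nup43 (0.0810) and without GV_A oocyte 6 for Nup133 (0.0531). Oocyte markers moved in the same comparison: 6 of the 10 fell at adjusted p under 0.05, among them Zp3 by log2 -2.21. Of the 15 granulosa markers 3 were tested in batch A and none passed. Ccnd2, Inha and Fshr were too scarce to be tested, with GV_A medians of 2.30, 0.988 and 0.235 CPM and MII_A medians of 0, and all 6 MII oocytes lay below each of these GV medians. The other granulosa markers went both ways. Foxl2, Has2 and Gja1 had 2 MII oocytes above the GV median and 4 below, and Inhba and Ptgs2 had 3 and 3. Hsd17b1, Amh, Ptx3 and Tnfaip6, with GV_A medians of 0, had 0 below and 4, 1, 2 and 2 above. Of the tested markers, Nr5a2 had 6 above and 0 below, Cyp19a1 4 and 2, and Kitl 1 and 5. The part of these markers in the members' larger share was not tested.

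The comparison of MI with GV oocytes in batch B asks about the hours just after the envelope breaks down. No shift of the pore and lamina mRNAs was detected. By edgeR, 0 of 32 members tested were called (0.121% of the 12419 genes tested were, 0.0886% higher and 0.0322% lower). By adjusted p alone 0 passed (0.145% of genes, 0.0966% higher and 0.0483% lower). An unadjusted p under 0.05 was seen for 4 (11.0% of genes). DESeq2 called 0 (0.829% of genes higher and 0.105% lower). The members' median log2 fold change was -0.06, against 0.02 over all genes tested, with 10 estimates above 0 and 22 below. For 0 members did the groups separate in either direction, and the same held for all genes tested (0% each way). Batch B has too few spike-in counts for ERCC scaling, so a change in total mRNA per oocyte could not be measured there. The count over all genes, 11 higher and 4 lower, rested on single oocytes: it was 75 and 7 without MI_B oocyte 9 and 0 each way without MI_B oocyte 7, and no member was called in either fit. MI_B oocytes 4, 8 and 9 had a total by HTSeq of 0.648, 0.634 and 0.529 times that by RSEM, against a median of 1.03 in MI_B; without them and oocyte 15, a choice made after seeing the data, 118 genes were called higher, 6 lower and 0 members.

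The 4 members with an unadjusted p under 0.05 were Nup85, Sec13, Nup35 and Ndc1, each with an estimate below 0; Sec13 is followed here because of this value. Nup35 had 33.8, 80.7 and 153 CPM (lowest, median, highest) in GV_B and 17.5, 52.9 and 79.2 in MI_B. All 15 MI oocytes lay below its GV median, and its log2 fold change was -0.65 ± 0.19 (adjusted p = 0.153). Sec13, an outer ring protein that also coats transport vesicles, had 25.0, 45.1 and 72.1 CPM in GV_B and 20.4, 32.0 and 41.9 in MI_B. Again all 15 MI oocytes lay below the GV median (-0.54 ± 0.17, adjusted p = 0.171). Nup85 had 29.3, 40.5 and 57.9 CPM in GV_B and 20.9, 30.7 and 46.1 in MI_B (-0.39 ± 0.15, adjusted p = 0.265). In the fit of all 37 oocytes with stage and batch as terms, Sec13 was lower at adjusted p under 0.05, and it was the only member to pass there. Of all genes tested in that fit, 0.557% passed higher and 0.431% lower.

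The other members whose levels were followed oocyte by oocyte overlapped widely in batch B. Nup133 had 4.05, 9.95 and 15.5 CPM in GV_B and 3.78, 14.0 and 20.8 in MI_B. Nup155 had 6.56, 12.1 and 24.3 CPM in GV_B and 5.75, 16.0 and 24.3 in MI_B. Both had estimates above 0, of 0.37 ± 0.27 and 0.45 ± 0.22, that missed the threshold. Nup54 had 57.5, 85.0 and 117 CPM in GV_B and 54.5, 72.2 and 106 in MI_B. Nup214 had 106, 142 and 229 CPM in GV_B and 94.8, 122 and 172 in MI_B. Ranbp2 had 96.3, 175 and 229 CPM in GV_B and 88.7, 157 and 266 in MI_B. The medians of these 3 genes were lower in MI_B, with ranges that overlapped. Nup153 had 32.8, 48.8 and 86.3 CPM in GV_B and 34.5, 47.7 and 72.4 in MI_B. Tpr had 139, 260 and 382 CPM in GV_B and 213, 268 and 350 in MI_B. The basket genes thus stood at nearly the same medians in both stages. Aaas had 13.6, 23.3 and 37.3 CPM in GV_B and 6.56, 19.6 and 26.5 in MI_B. Nup210 had 0.139, 1.55 and 3.66 CPM in GV_B and 0 to 4.17, with a median of 1.34, in MI_B.

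Among the lamina genes of batch B, Lbr had 111, 135 and 165 CPM in GV_B and 93.8, 143 and 178 in MI_B. Lmna had 40.5, 54.0 and 65.2 CPM in GV_B, and in MI_B its lowest value was 34.0 and its median 47.8. Lmnb1 had 16.0, 24.5 and 45.3 CPM in GV_B, and in MI_B its lowest value was 11.4 and its median 24.6. In these 3 genes the MI oocytes spread over the range of the GV oocytes and past it at both ends. Lmnb2 had 0 to 3.86 CPM in GV_B (median 1.55) and 0.293 to 6.93 in MI_B (median 1.64). Emd had 1.03 to 6.36 CPM in GV_B (median 2.03) and 0 to 5.38 in MI_B (median 1.57). At these counts, with medians of 15.5 to 25.9 per oocyte, the standard errors of the log2 fold change were 0.54 for Lmnb2 and 0.43 for Emd, so a modest difference was not detectable. Of the 15 granulosa markers, 6 were tested in batch B, with 3 estimates above 0, 3 below and a median of -0.09, and their summed level had like medians in GV_B and MI_B. Gja1 fell by 3.42 and Ccnd2 by 3.69 on the log2 scale in MI_B, from GV_B medians of 2.08 and 3.09 CPM. Both were called lower by edgeR (adjusted p = 0.0174 each), as were 0.0322% of genes tested. The summed level was led by Cyp19a1 in GV_B (median 14.3 CPM) and by Nr5a2 in MI_B (median 16.4 CPM). It therefore says little of scarcer markers. Inhba was not tested, but all 15 MI oocytes lay below its GV_B median (1.15 CPM, against 0.176 CPM in MI_B). The other untested granulosa markers had medians of 0 in both groups. Nr5a2 (0.75 ± 0.28), Has2 (1.21 ± 0.89), Kitl (0.04 ± 0.42) and Cyp19a1 (-0.22 ± 0.19) did not pass. Their part in any member's level was not tested.

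The MII change and the MI change were then compared with each other, each against the GV oocytes of its own batch, in 1 model of all 37 oocytes. Nup85, of the outer ring, and Nup35, of the inner ring, had a higher change at MII than at MI by over 2-fold. These were 2 of the 32 members tested called higher and 0 called lower (2.01% of the 15083 genes tested were called higher, 2.02% lower and 4.03% in either direction). For Nup85 (ENSMUSG00000020739, chromosome 11, 115564434 to 115583985, plus strand, mm10) the difference of the log2 fold changes was 1.10 ± 0.23 (adjusted p = 0.00252). For Nup35 (ENSMUSG00000026999, chromosome 2, 80617236 to 80658906, plus strand, mm10) it was 1.22 ± 0.31 (adjusted p = 0.0135).

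By adjusted p alone, 6 members had a higher change at MII (3.10% of genes tested) and 0 a lower one (2.36%; 5.46% in either direction) by edgeR, with 16 at an unadjusted p under 0.05 (17.7%); DESeq2 was not run on this comparison. Beside Nup85 and Nup35 these were Nup214 (0.94 ± 0.24, adjusted p = 0.0126) and Nup153 (0.84 ± 0.23, adjusted p = 0.0197). Nup54 (0.75 ± 0.21, adjusted p = 0.0265) and Nup98 (0.63 ± 0.18, adjusted p = 0.0255) completed them. No lamina gene was among them with all oocytes (Lbr 0.54 ± 0.19, adjusted p = 0.0756), but Lbr passed without MI_B oocyte 5, 8 or 15 (adjusted p = 0.0391, 0.0488 and 0.0445). The median difference over the members was 0.53, against 0.04 over all genes tested. With ERCC scaling and all oocytes, the change in batch A turned from above to below 0 in each of these 6 genes. Without GV_A oocyte 1 as well, Nup153 and Nup214 were among the estimates above 0. Batch B cannot be scaled by ERCC, so these are differences in the share of mRNA. MI oocytes were matured in culture and MII oocytes in the animal, and stage, batch and route of maturation cannot be told apart here. Markers of cell type differed between the changes too. Of the 10 oocyte markers tested Zp1 (-1.42, adjusted p = 0.00127), Zp2 (-1.74, adjusted p = 0.000131) and Zp3 (-1.86, adjusted p = 0.00193) were called lower. The only blood marker tested, Hbb-bs, was called higher (5.40, adjusted p = 0.00892). Its counts in MII_A came from 3 of 6 oocytes, with a median of 0.0528 CPM and 4.59 CPM in MII_A oocyte 1. Of 8 granulosa markers tested none passed. The part of these markers in the members' differences was not tested.

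Nup85 and Nup35 were called in each of the 37 fits that left out 1 oocyte. Nup214 passed in each of them as well. The count at adjusted p alone was 3 without MII_A oocyte 4 (2.61% of genes tested) and 10 without MI_B oocyte 8 (3.33%). Without MII_A oocyte 1 the members called and passing were the same as with all oocytes. Of all genes, 0.971% were then called higher and 1.82% passed higher, against 2.01% and 3.10%. Nup54 passed in 33 of the 37 fits and was lost without GV_A oocytes 1 (adjusted p = 0.0741) or 5 or MII_A oocytes 4 or 6. Nup98 passed in 33 and was lost without GV_A oocytes 2 (0.0742), 4 or 5 or MII_A oocyte 4. Nup153 passed in 34 and was lost without GV_A oocytes 2 or 4 or MII_A oocyte 4 (0.0554). With no filter on low counts Nup54 (adjusted p = 0.0974), Nup98 (0.141) and Nup153 (0.0758) were lost, and with HTSeq counts Nup54 (0.0729) and Nup153 (0.0961). Of all genes, 2.71% passed higher with no filter and 0.770% with HTSeq counts. With HTSeq counts Nup85 was still called, and Nup35 missed the threshold (1.11, adjusted p = 0.0595; its alternatives ran from 0.00476 to 0.0595). Of the 75-base stretches of Nup35 transcripts, 34.7% also occur in another gene, nearly all in Gm4353 (by GENCODE release 21; the authors used VM20), so reads of Nup35 are in part assigned by model.

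The transcripts of the members were tested in the same way. Of 215 annotated transcripts, 65 were tested in batch A, from 32 members. Called higher in MII were 2 of these 65, Lmna-205 and Nup93-202, and 0 were called lower (1.35% and 4.23% of the 22461 transcripts tested, 5.57% in either direction), with 29 at an unadjusted p under 0.05 (24.2%). Lmna-205 is annotated as a retained intron form without a coding region. It had 0, 6.30 and 20.8 expected counts (lowest, median, highest) in GV_A and 57.2, 67.7 and 158 in MII_A, with no overlap. Its log2 fold change was 3.42 ± 0.69 (adjusted p = 0.00795), and 2.83 with ERCC scaling; it was the 1 member transcript called higher on both scales. Without MII_A oocyte 1, in which the most genes were detected, it was 3.27 (adjusted p = 0.0206).

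Lmna makes lamin A and lamin C from the same gene by alternative 3' processing. Lmna-201, which codes for the 665 residues of prelamin A, held 43.5% to 65.8% of the gene's counts in GV_A (median 58.4%) and 53.7% to 67.3% in MII_A (median 58.6%). Lmna-203, which codes for the 574 residues of lamin C, held 20.1% to 26.1% in GV_A (median 24.3%) and 0.133% to 13.5% in MII_A (median 9.29%). The shares of Lmna-203 did not overlap between the stages, while those of Lmna-201 did. Its own test did not pass (log2 fold change -1.40 ± 0.60, adjusted p = 0.171), although it did with ERCC scaling (-2.10, adjusted p = 0.0299), and the shares were not tested. Lmna-205 held a median of 0.882% in GV_A and 9.37% in MII_A. Lmna-206, annotated with a coding region of 351 bases, held a median of 15.9% in GV_A and 24.2% in MII_A, with overlap. In batch B the shares were scattered: Lmna-201 held 10.1% to 66.4% in GV_B and 6.50% to 56.4% in MI_B, and Lmna-203 0% to 60.3% in GV_B and 18.0% to 70.4% in MI_B. RSEM divides reads among overlapping forms, and these shares carry that uncertainty.

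**Figure D4:**
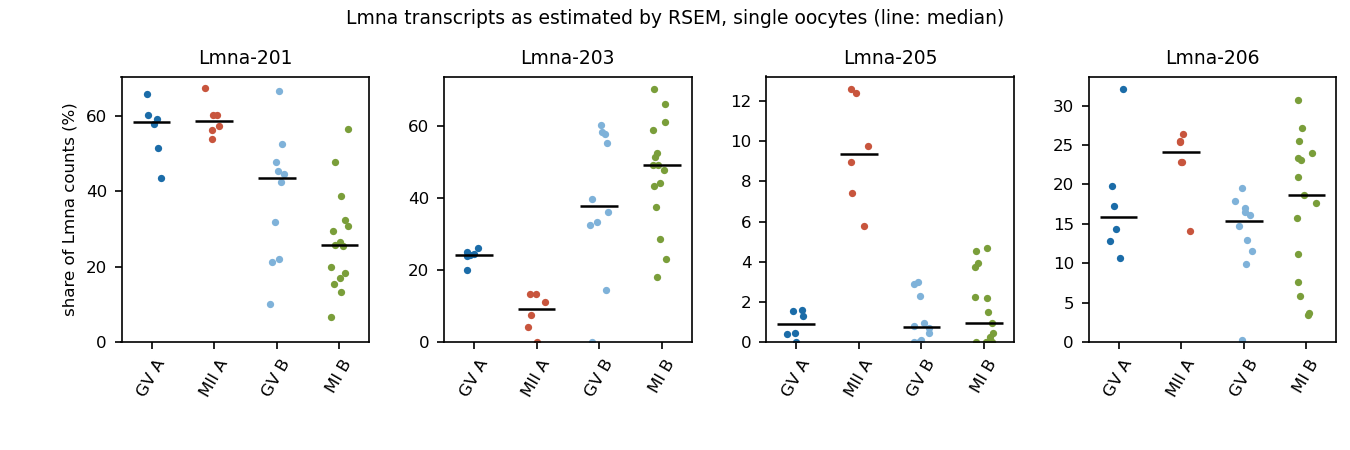
Share of the Lmna counts (percent, axes from 0) that RSEM assigned to each of the 4 Lmna transcripts tested in batch A (Lmna-201, Lmna-203, Lmna-205 and Lmna-206) in each oocyte, by group, with the median as a line. In batch A the Lmna-205 share is higher in each MII oocyte (median 9.37%) than in each GV oocyte (median 0.882%), and the Lmna-203 share is lower.

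Nup93-202, which codes for all 819 residues of its protein, had 188, 362 and 725 expected counts in GV_A and 510, 863 and 1073 in MII_A. The groups overlapped. Its log2 fold change was 1.15 ± 0.31 (adjusted p = 0.0329), 0.48 with ERCC scaling (adjusted p = 0.296), and 1.07 without MII_A oocyte 1 (adjusted p = 0.0728), where the call was lost. By adjusted p alone 7 member transcripts rose with TMM and 0 fell (3.49% and 5.81% of transcripts tested, 9.30% in either direction). They include Lbr-201 (0.81 ± 0.15, adjusted p = 0.00607; 0.12 with ERCC scaling) and Nup153-201 (0.72 ± 0.15, adjusted p = 0.00944; -0.03 with ERCC scaling), the main coding forms of their genes. Nup98-203, which held 90.5% of the Nup98 counts at the GV_A median and 91.8% at the MII_A median, rose by 0.52 ± 0.15 with TMM (adjusted p = 0.0451) and had -0.24 with ERCC scaling; without MII_A oocyte 1 its adjusted p was 0.0556. The other Nup98 coding forms tested in batch A, Nup98-201, Nup98-204 and Nup98-205, had 0.13, -0.40 and -0.04 with TMM and did not pass. In batch B, edgeR called 0 of 67 member transcripts (0% of the 22717 tested), and 6 had an unadjusted p under 0.05 (7.11%). DESeq2 called 0 (0.427% of transcripts tested higher and 0.0264% lower).

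Nup58, a central channel protein, had almost no counts under its own entry (ENSMUSG00000063895). Its highest level in any oocyte was 0.793 CPM, its median was 0 in all 4 groups, and it was not tested. Of its 75-base stretches, 47.8% also occur in Gm49336, a gene annotated on the same strand of chromosome 14 across much of the Nup58 locus (by release 21 as well). Gm49336 had a median of 41.6 CPM in GV_A, 57.3 in MII_A, 35.3 in GV_B and 37.2 in MI_B. Nup58 also lay below Gm49336 in HTSeq counts, with at most 6 in any oocyte. The HTSeq medians of Gm49336 were 732, 904, 560 and 448 in GV_A, MII_A, GV_B and MI_B. All counts under the Nup58 entry went to Nupl1-201, annotated as a nonsense-mediated decay form of 3602 bases. Gm49336 is annotated as protein coding. The low level is therefore that of this entry and not of all mRNA from the locus. Why the Nup58 entry has so few counts was not tested. The log2 fold change of Gm49336 was 0.33 ± 0.14 in batch A (adjusted p = 0.105) and 0.01 ± 0.15 in batch B (adjusted p = 0.991). Smaller shares of other members' transcripts recur elsewhere: 14.0% for Emd, 10.7% for Pom121, 9.27% for Nup54, 8.42% for Nup133 and 7.45% for Lbr.

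A list of 59 other genes of nuclear transport and the nuclear envelope was looked at beside the members: other pore proteins, import and export receptors, the Ran cycle, and envelope and lamin-processing proteins. In batch A 53 of them were tested, and edgeR with TMM called 0 (8.47% of all genes tested). DESeq2 called 0 as well (2.17% of all genes higher and 6.53% lower). By edgeR 20 had an unadjusted p under 0.05 (34.3% of all genes). By adjusted p alone 5 rose and 6 fell with TMM (9.06% and 11.5% of all genes tested). With ERCC scaling 0 rose and 20 fell (1.11% and 42.2%). The shares at adjusted p alone lie near those of all genes. Their median log2 fold change was 0.09. Ahctf1 (ELYS), which seeds pore assembly on chromatin as the nucleus reforms, had 72.5, 90.7 and 98.9 CPM in GV_A and 134, 158 and 181 in MII_A. The groups did not overlap, and Ahctf1 rose by 0.85 ± 0.13 (adjusted p = 0.000399; 0.09 with ERCC scaling). The import receptor gene Ipo8 rose by 0.65 ± 0.13 (adjusted p = 0.00283; -0.09 with ERCC scaling). Sun1, which links the lamina to the cytoskeleton, rose by 0.56 ± 0.13 (adjusted p = 0.00657; -0.18 with ERCC scaling).

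The 3 that fell most did so on both scales. Rce1, an endoprotease that trims prenylated proteins such as lamins, fell from a median of 37.6 CPM in GV_A to 20.1 in MII_A (log2 fold change -0.90 ± 0.17, adjusted p = 0.00204; -1.63 with ERCC scaling). The mRNA export receptor gene Nxf1 fell from 67.2 to 40.0 CPM (-0.83 ± 0.14, adjusted p = 0.000894; -1.58 with ERCC scaling). Nutf2, which carries Ran back into the nucleus, fell from 53.9 to 30.5 CPM (-0.77 ± 0.21, adjusted p = 0.0157; -1.50 with ERCC scaling). In batch B edgeR found 0 of the 53 tested at adjusted p under 0.05 (0.145% of all genes), 4 had an unadjusted p under 0.05 (11.0% of all genes), and DESeq2 found 1, which was higher in MI (1.01% of all genes were). Between the changes at MII and MI, 2 of 56 were higher, Ahctf1 (0.77 ± 0.20) and Ipo8 (0.70 ± 0.19), and 2 were lower, Tor1a (-0.97 ± 0.26), an envelope ATPase, and Nxf1 (-0.81 ± 0.25); of all genes tested 3.10% were higher and 2.36% lower. Ahctf1 and Tor1a passed in each of the 37 fits that left out 1 oocyte. Ipo8 was lost without GV_A oocytes 4 or 5 (adjusted p = 0.0591 without the latter), and Nxf1 passed in only 7 of the 37 fits (highest adjusted p 0.106, without MII_A oocyte 1). With no filter and with HTSeq counts Ahctf1 (adjusted p = 0.0821 and 0.0670), Ipo8 (0.0604 and 0.0701) and Nxf1 (0.0597 and 0.0695) were lost, and with RLE scaling Nxf1 (0.0505), while Tor1a passed in all 3.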

How the data were processed

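Single-oocyte Smart-seq2 libraries were trimmed by the authors with Trim Galore 0.6.4. The authors deposited RSEM 1.3.1 expected counts per gene and per transcript (mm10, GENCODE with ERCC sequences) and HTSeq 0.12.4 counts per gene from STAR 2.7.6a alignments; none of these deposited tables was normalized. The 33 members and the other lists were chosen with earlier results of these data known. Symbols, lengths and positions came from GENCODE mouse release 21, while the authors' methods name VM20, which was not at hand; shared stretches and overlaps of genes were therefore not computed on the annotation behind the counts. Rounded RSEM expected counts without ERCC entries were tested with edgeR 4.0.16 (TMM, filterByExpr, glmQLFit and glmQLFTest; R 4.3.3, Python 3.11.15) within batch A, within batch B, and for the difference of the changes in a model of 4 groups. P-values were adjusted by Benjamini-Hochberg over all genes or transcripts tested, not over the list. Called means an adjusted p below 0.05 together with more than a 2-fold change; the adjusted p alone was a second rule, and "rose" and "fell" refer to it. SE is the standard error of the log2 fold change. CPM used effective library sizes, and lengths per kilobase were weighted by transcript abundance. Values in single oocytes were given for the most and least abundant per kilobase of each role and for the lamina genes, and others are marked. From the 59 other genes, up to 3 per direction with the largest fold change among those at adjusted p under 0.05 were named. Transcripts named were those called and the coding forms of Lmna and Nup98; Lbr-201, Nup153-201 and, in batch B, Sec13 were added after their values were seen. Alternatives were no filter, RLE scaling, DESeq2 1.42.0, HTSeq counts, ERCC counts as library sizes (batch A), the oocyte number as a block, all 37 oocytes with stage and batch terms, and leaving out oocytes.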

Additional observations from a re-analysis of the deposited data

Results flagged for a closer look

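Of 97 groups of values in single oocytes, 12 had 1 oocyte far from the others. These groups came from GV_A, MII_A and GV_B. MI_B, with 15 oocytes, lay outside the range of the rule and was not looked at. A rate of 1 in 20 would give 4.85. That rate does not hold where 1 oocyte is above 0 and the others are at 0, as for Nup58 and Nup98-206. The 12 are therefore not read as more than chance. Nup58 stood at 0.200 CPM in GV_A oocyte 3, 0.656 CPM in MII_A oocyte 1 and 0.793 CPM in GV_B oocyte 2, with 0 in the other oocytes of those groups. Lmnb1 stood at 38.6 CPM in MII_A oocyte 5, and the next oocyte was at 19.7 CPM. Nup153 stood at 86.3 CPM in GV_B oocyte 4, with the next at 53.2 CPM, and the members' summed level in the same oocyte was 2130 CPM, with the next at 1901 CPM. In MII_A oocyte 1, 29518 genes had a count of 1 or more, and in the next oocyte 22244. Among transcripts, Lmna-202 stood at 4.60 CPM in GV_A oocyte 6, Lmna-206 at 23.4 CPM in GV_A oocyte 2, and Nup98-206 at 0.893 CPM in GV_A oocyte 2 and 4.06 CPM in MII_A oocyte 4, each above the others. Nup98-203 was low in GV_B oocyte 3, at 73.8 CPM, with the next at 115 CPM.

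For 10 genes the change from GV to MII in batch A differed from the change from GV to MI in batch B, by the edgeR test of that difference at adjusted p under 0.05. It was higher at MII, on the log2 scale, by 1.10 for Nup85, 1.22 for Nup35, 0.75 for Nup54, 0.94 for Nup214, 0.63 for Nup98, 0.84 for Nup153, 0.77 for Ahctf1 and 0.70 for Ipo8. The difference was -0.81 for Nxf1 and -0.97 for Tor1a. Of 32 members tested 6 were higher and 0 lower. Of 56 other transport and envelope genes tested 2 were higher and 2 lower, near the shares of all genes (3.10% higher and 2.36% lower). Stage, batch and maturation in culture or in the animal cannot be told apart in these values.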

How the results depend on the processing

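In batch A the count of members that rose at adjusted p alone, 13, was 5 with no filter on low counts, 8 in the fit of all 37 oocytes and 0 with ERCC library sizes, and the count that fell, 3, was 0 in the fit of all 37 oocytes and 8 with ERCC. With the oocyte number as a block these counts were 4 and 0. The share of all genes that rose moved too, from 9.06% to 3.80% with no filter, 4.13% in the fit of all 37 and 4.62% with the block, and the share that fell from 11.5% to 4.18%, 4.05% and 7.66%; oocytes of the same number did not pair (correlations from -0.39 to 0.36 in batch A and from -0.20 to 0.14 in batch B). Leaving out 1 oocyte gave 6 to 11 that rose and 2 to 3 that fell, with 6.46% to 8.48% and 8.60% to 11.0% of all genes. With ERCC library sizes 6 of 32 members were called, all lower (29.3% of all genes were called lower). The share of all genes passing the adjusted p that were higher went from 44.0% to 2.57%. Of the 25 member estimates above 0, 23 turned below 0 with ERCC. The log2 fold changes that turned and passed the adjusted p with TMM or with ERCC were, for members and for the partners and transcripts named in the report: Nup107 -0.19, Nup85 -0.06, Nup37 -0.17, Seh1l -0.25, Nup54 -0.18, Nup214 -0.12, Nup98 -0.27, Nup153 -0.03, Tpr -0.32, Nup50 -0.69, Ndc1 -0.31, Lbr -0.29, Ipo8 -0.09, Sun1 -0.18 and the transcripts Nup153-201 -0.03 and Nup98-203 -0.24. ERCC with GV_A oocyte 1 left out, the oocyte with the fewest ERCC counts, was chosen after seeing the data; it gave 4 members called lower (Aaas, Nup133, Nup188 and Nup43, with Lmnb2 and Ranbp2 lost; 23.6% of all genes), 0 that rose (1.41%), 6 that fell (32.6%), 5 estimates above 0, among them Nup153 0.18 and Nup214 0.01, Ipo8 at 0.01, and, below 0, the values Nup107 -0.11, Nup85 -0.03, Nup37 -0.17, Seh1l -0.20, Nup54 -0.18, Nup98 -0.07, Tpr -0.16, Ndc1 -0.27, Lbr -0.17 and Sun1 -0.08. In batch B the fit of all 37 oocytes gave 1 member that fell, Sec13, and the other alternatives 0. Of all genes tested in that fit, 0.557% rose and 0.431% fell. Over all genes the main edgeR fit called 11 higher and 4 lower, and DESeq2 103 and 13. For the MII change against the MI change, HTSeq counts gave 1 member called and 3 at adjusted p alone, no filter gave 3 at adjusted p alone (of all genes, 0.453% were called higher and 0.770% passed higher with HTSeq, and 2.71% passed higher with no filter, against 2.01% and 3.10%), and leaving out 1 oocyte gave 2 to 3 called and 3 to 10 at adjusted p alone. For member transcripts in batch A, called counts were 3 higher and 1 lower with no filter (0.456% and 0.902% of all transcripts), 2 and 1 with DESeq2 (2.23% and 5.78%), 1 and 9 with ERCC (0.441% and 18.8%) and 1 and 0 without MII_A oocyte 1 (1.02% and 3.28%); at adjusted p alone they were 4 and 1 with no filter (0.547% and 1.03%), 13 and 4 with DESeq2 (6.46% and 8.77%), 1 and 9 with ERCC (0.516% and 22.4%), and 4 and 0 without MII_A oocyte 1 (2.27% and 4.20%). ERCC scaling could not be run for batch B. The cause of these differences was not tested. Depth limits Nup210, Lmnb2 and, in batch B, Emd, whose counts were few. The Nup58 entry was near 0 by RSEM and by HTSeq, while Gm49336, annotated across much of the same locus, was not. The reason was not tested.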
